A study of Mus musculus with 10 samples.

Results

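Isolated H3K4me2 regions are the 100 bp windows of the H3K4me2 table on chromosomes 1 to 19 and X that had no row of the H3K4me1 table and no row of the H3K4me3 table within 500 bp. They numbered 13231, which was 45.7% of the 28979 H3K4me2 rows on these chromosomes, out of 85618 rows in the 3 deposited tables. By ChIP-seq with a FLAG antibody, the series mapped Dnmt3a2, the shorter form of the enzyme Dnmt3a, in mouse embryonic stem cells of the J1 line. All cells were Dnmt TKO, meaning that the cells' own DNA methyltransferase genes had been disrupted, and carried 1 of 3 Dnmt3a2 constructs labelled WT, WWD and R, at passages 7 to 10. The labels list 2 Dnmt3a2 samples per construct, 1 numbered line and 1 labelled bulk, and also 3 H3K4me3 samples and 1 input sample from the same TKO background. The H3K4me2 table held 1 Dnmt3a2 column per construct, whose name did not show which sample or samples it contained. Each comparison therefore had no replicate, no test was run, and a clone, a bulk culture and a construct cannot be told apart.

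Dnmt3a is a de novo methyltransferase whose ADD domain reads the tail of histone H3 and binds it best when lysine 4 carries no methyl group. Trimethylation of this lysine is typical of active promoters, monomethylation of enhancers, and dimethylation occurs at both, often on the flanks of promoters. The series title names a histone-recognition domain of Dnmt3a as the part that was engineered, but the labels do not spell out the amino acid changes of WWD and R. The question for the isolated regions is how Dnmt3a2 of each construct was distributed over regions listed for dimethylation alone. The H3K4me2 column of the table belonged to no listed sample and was not used, so the label of the regions could not be checked against H3K4me2 reads, and the regions carried no gene names. No H3K4me2 row overlapped or touched a row of the other tables (0 of 28979), so isolation here means distance from listed windows of the other marks.

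Library totals were 17259400 reads for WWD, 24015095 for WT and 25254320 for R. Whole reads were recovered from the deposited log2 values, and levels are mean reads per region per 10000000 library reads. Levels include background, as the input was not analysed here. Intervals in parentheses are 95% intervals from the variance over regions, which take regions as independent and do not cover variation between cultures. Counting intervals are narrower and are named where given.

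Isolated H3K4me2 regions held more Dnmt3a2 reads in WWD than in WT or R. The level was 0.605 in WWD (0.584 to 0.625), 0.369 in WT (0.351 to 0.387) and 0.372 in R (0.354 to 0.391). In whole reads these were 13806, 11713 and 12446 in turn, so the smallest library held the most. WWD was 1.64-fold above WT (1.55 to 1.74, counting interval 1.60 to 1.68) and 1.62-fold above R (1.53 to 1.72, counting interval 1.58 to 1.66). The excess was not particular to isolated regions. Over all H3K4me2 rows WWD was 1.82-fold above WT (1.74 to 1.90) and 1.72-fold above R (1.64 to 1.79). The R to WT ratio of mean levels at isolated regions was 1.01 (0.947 to 1.08, counting interval 0.985 to 1.04). It depended on the regions with most reads, and with a cap of 5 reads per region it was 0.924.

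Most isolated regions were empty in any single column. WWD reads were present at 4264 regions, or 32.2% (exact Clopper-Pearson interval 31.4 to 33.03). For WT the number was 2633, or 19.9% (19.2 to 20.6), and for R it was 2422, or 18.3% (17.6 to 18.98). R and WT therefore had nearly the same mean level while R had reads at fewer regions, 0.920 times the WT share. The mean over occupied regions was 5.14 reads in R, 4.45 in WT and 3.24 in WWD. If each column were thinned to the WWD total, the expected share with a read would be 18.3% in WT and 16.7% in R, further below WWD.

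In raw reads, WWD led among isolated regions with few reads and R among those with many. A single read was found at 1301 isolated regions in WWD, 623 in WT and 550 in R. Between 3 and 5 reads were found at 1505 regions in WWD, 895 in WT and 683 in R. The order turned at higher numbers, with 11 to 20 reads at 73 regions in WWD, 139 in WT and 241 in R. At raw counts of 5 or more the shares were 7.44% in WWD, 7.82% in WT and 8.65% in R, but 5 reads stand for a higher level in the smaller WWD library. At matched levels WWD was again the highest, with 11.3% of regions over 2 reads per 10000000 against 7.82% in WT and 6.99% in R. Over 4 reads per 10000000 the shares were 3.36% in WWD, 1.59% in WT and 1.93% in R. Reads are whole, so the levels are matched only roughly. To pass 2 per 10000000 took 4 reads in WWD, 5 in WT and 6 in R, and to pass 4 took 7, 10 and 11. The sizes of the shares and the order of WT and R therefore depend on where the limit falls. The WWD excess was thus present among regions with low and with high levels. Regions up to 2 reads per 10000000 contributed 0.214 to the mean level in WWD and 0.110 in WT, and regions above it 0.390 and 0.259. Reads were clumped in each library, since the variance over isolated regions was 4.29 times the mean in WWD, 7.31 times in WT and 7.85 times in R. The 132 regions with most reads, 1% of the set, held 11.3% of the reads in WWD, 17.7% in WT and 17.6% in R. How many of these reads were PCR duplicates was not tested.

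**Figure D1:**
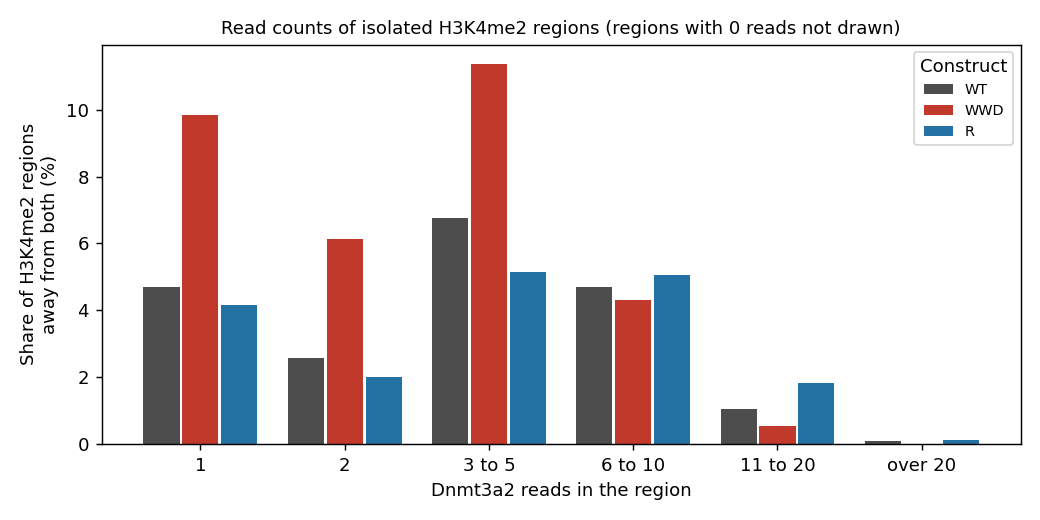
Share of the 13231 isolated H3K4me2 regions (y axis, percent) by number of Dnmt3a2 reads in the region (x axis, classes of 1, 2, 3 to 5, 6 to 10, 11 to 20 and over 20 reads), with 1 bar per construct and regions with 0 reads left out. WWD bars are the tallest in the 3 classes up to 5 reads, and R bars in the 3 classes above.

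Within each library, isolated H3K4me2 regions held more Dnmt3a2 reads than the 13124 H3K4me2 regions lying beside an H3K4me3 row and not beside an H3K4me1 row. Whether the level of either kind of region exceeded background was not tested. The level of isolated regions was 1.80 times that of these promoter-mark neighbours in WT (1.67 to 1.95), 1.60 times in R (1.48 to 1.72) and 1.36 times in WWD (1.29 to 1.43). The excess was present on 20 of 20 chromosomes in WT and R and on 19 of 20 in WWD. In levels, WT had 0.369 at isolated regions and 0.204 beside H3K4me3 rows, R had 0.372 and 0.233, while WWD had 0.605 and 0.446. As a fold the step between the 2 kinds of region was smallest in WWD. As a difference of levels it was similar in WWD and WT and smallest in R. The difference of levels between WWD and WT was likewise similar at both kinds of region. Read the other way, the WWD to WT ratio at isolated regions was 0.752 times that beside H3K4me3 rows (0.686 to 0.823), and it was the lower of the 2 on 18 of 20 chromosomes. The 627 H3K4me2 rows beside both other tables did not show this, since WWD over WT was 1.51 there (1.12 to 2.03) and the ratio at isolated regions was 1.09 times it (0.805 to 1.47). For R over WT the isolated regions had 0.885 times the ratio (0.797 to 0.983), higher on 9 chromosomes and lower on the other 11.

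Isolated regions had a somewhat lower level than the 1997 H3K4me2 regions beside an H3K4me1 row and not beside an H3K4me3 row. Isolated regions had 0.943 times their level in WT (0.836 to 1.06), 0.885 times in R (0.782 to 1.002) and 0.885 times in WWD (0.811 to 0.966). Of these intervals only that of WWD excluded 1. The WWD to WT ratio at isolated regions was 0.938 times that beside H3K4me1 rows, with an interval that included 1 (0.809 to 1.09). The 21031 H3K4me1 rows that lay away from both other tables held more reads than isolated H3K4me2 regions, which had 0.755 times their level in WT (0.672 to 0.849), 0.873 times in R (0.773 to 0.986) and 0.699 times in WWD (0.671 to 0.730). The values of both tables were put on the scale of the same libraries' totals. Those H3K4me1 rows include single windows with up to 1246 reads in WT and 1180 in R, whereas no isolated H3K4me2 region held more than 64. The R to WT ratio was 1.01 at isolated H3K4me2 regions and 0.874 at isolated H3K4me1 rows, and the former was 1.16 times the latter (1.07 to 1.25).

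**Figure D2:**
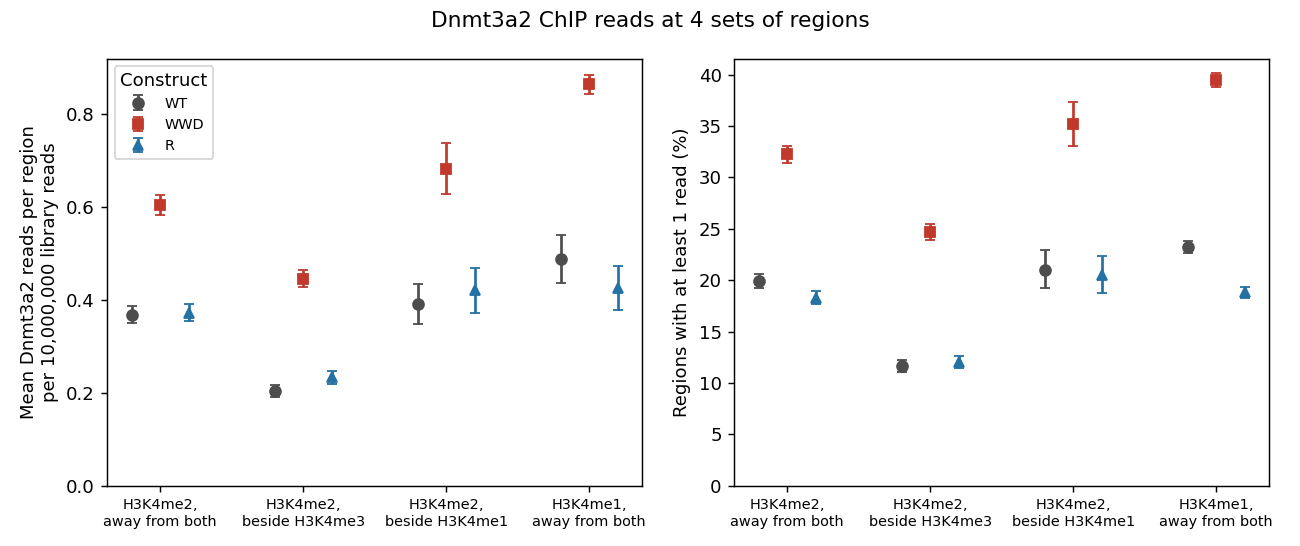
Mean Dnmt3a2 reads per region per 10000000 library reads (left panel, y axis) and share of regions with a read (right panel, y axis, percent) at 4 sets of regions (x axis), with 1 point per construct. Error bars are 95% intervals over regions on the left and exact binomial 95% intervals on the right. In each construct the isolated H3K4me2 regions sit above those beside H3K4me3 rows and below the isolated H3K4me1 rows.

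The difference between isolated regions and those near H3K4me3 rows was spread over the first kilobase or so. Beyond it the levels did not rise steadily, and they were lower again past 50000 bp. The median isolated region lay 12911 bp from the nearest H3K4me3 row and 12209 bp from the nearest H3K4me1 row. Over 500 to 1000 bp from an H3K4me3 row, H3K4me2 rows had a level of 0.321 in WT, 0.343 in R and 0.530 in WWD. Over 1000 to 2000 bp it was 0.392, 0.3996 and 0.654. These farther rows compare with 0.186 in WT, 0.206 in R and 0.423 in WWD at rows up to 100 bp away. Over 10000 to 50000 bp the levels were 0.408 in WT, 0.415 in R and 0.648 in WWD. Past 50000 bp they were 0.323 in WT and 0.337 in R, with intervals that did not overlap those of the bin before. In WWD the level past 50000 bp was 0.588, and the intervals overlapped. At the edge of the rule, isolated regions whose nearest row of either table was over 500 to 750 bp away had levels of 0.339 in WT, 0.342 in R and 0.533 in WWD, and H3K4me2 rows just outside the rule, at over 250 to 500 bp, had 0.253, 0.323 and 0.517.

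The WWD to WT ratio of isolated regions did not follow distance from H3K4me3 rows in one direction. It was 1.66 (1.46 to 1.89) for the 2789 regions over 500 to 2000 bp away and 1.63 (1.46 to 1.84) for the 3065 over 2000 to 10000 bp away. It was 1.58 (1.44 to 1.73) for the 4840 regions over 10000 to 50000 bp away and 1.77 (1.54 to 2.03) for the 2537 farther ones. These intervals overlap throughout. The R to WT ratio in the same bins ran from 0.977 to 1.03. By distance to the nearest H3K4me1 row the WWD to WT ratio was 1.60, 1.57, 1.77 and 1.53 from the nearest to the farthest bin. The 893 regions over 50000 bp from both tables, the most remote of the set, had levels of 0.306 in WT (0.237 to 0.375), 0.504 in WWD (0.429 to 0.579) and 0.260 in R (0.199 to 0.321), with a WWD to WT ratio of 1.65 (1.29 to 2.11).

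**Figure D3:**
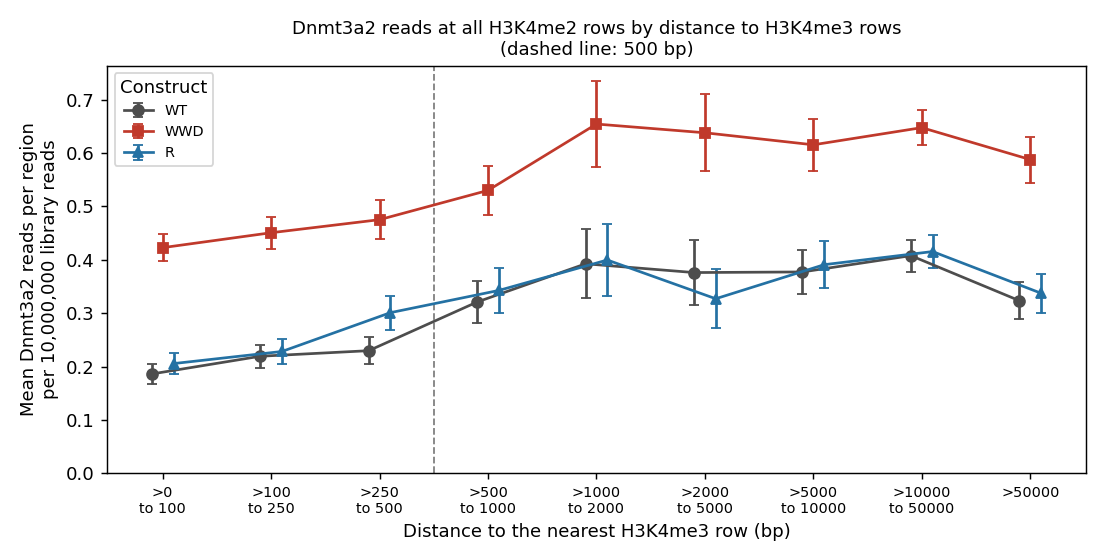
Mean Dnmt3a2 reads per region per 10000000 library reads (y axis) at all 28979 H3K4me2 rows by distance to the nearest H3K4me3 row (x axis, bp, unequal bins), with 1 line per construct and 95% intervals over regions. Levels in each construct are higher past 1000 bp than up to 100 bp, and WWD lies above WT and R in every bin.

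For isolated regions within 10000 bp of an H3K4me3 row, the level of that neighbour could also be read, as the mean H3K4me3 reads of the 3 constructs per 10000000. The regions were put into groups of 1951, 1951 and 1952 by this level, a division added after the data were seen. The R to WT ratio was 0.836 (0.703 to 0.995) beside the weakest neighbours, 0.964 (0.810 to 1.15) beside the middle ones and 1.24 (1.04 to 1.46) beside the strongest. The ratio was 1.48 times as high beside the strongest as beside the weakest (1.16 to 1.88), and higher on 17 of 20 chromosomes. WWD over WT showed no such order, at 1.56 (1.35 to 1.81), 1.71 (1.47 to 1.98) and 1.69 (1.45 to 1.96). In levels, R had 0.341, 0.326 and 0.416 from the weakest to the strongest neighbours, and WT had 0.408, 0.339 and 0.337. By share of regions with a read, R over WT was 0.868, 0.831 and 1.11 in the same order. By this measure the middle group was thus not above the weakest. Regions with strong neighbours also lay closer to them, at a median of 1016 bp against 3698 bp. Among regions over 500 to 2000 bp away the R to WT ratio went from 0.783 (0.585 to 1.05) to 1.25 (1.01 to 1.55), and among those over 2000 to 10000 bp away from 0.862 (0.695 to 1.07) to 1.20 (0.912 to 1.59). The direction was therefore the same in both distance classes, with wider intervals.

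**Figure D4:**
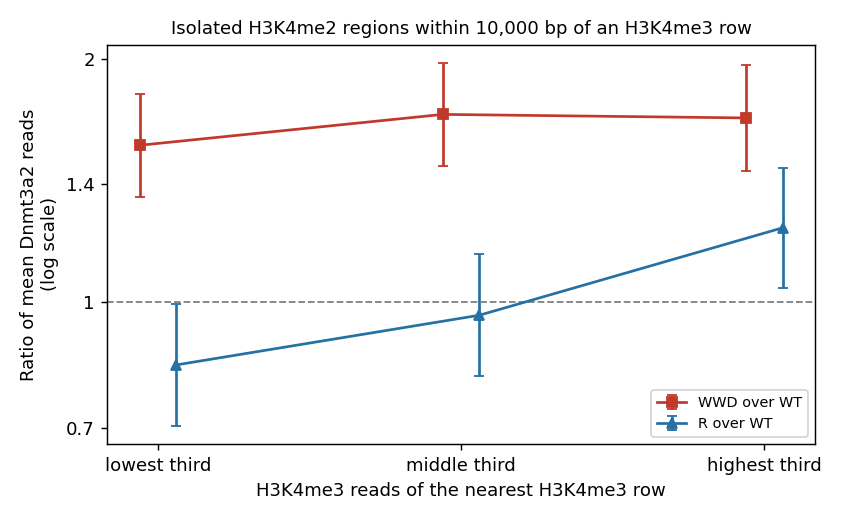
Ratio of mean Dnmt3a2 reads to WT (y axis, log scale) at isolated H3K4me2 regions within 10000 bp of an H3K4me3 row, in 3 groups of near equal size by the H3K4me3 reads of that row (x axis), with 95% intervals over regions. R over WT goes from 0.836 to 1.24, and WWD over WT stays between 1.56 and 1.71.

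Reads of different constructs met at isolated regions about as often as, or slightly more often than, the share of regions each occupied. No read of any construct was present at 6074 regions (45.9%), while 2675 had reads in WWD alone, 1332 in WT alone and 1190 in R alone. Reads of all constructs were present at 202 regions (1.53%). These patterns are not set beside those of all H3K4me2 rows, so they do not mark regions particular to 1 construct. Over all H3K4me2 rows a read was present at 28.8% in WWD, 16.1% in WT and 15.6% in R. Of the WT regions with a read, 35.3% also had a read in WWD, close to the 32.2% of all isolated regions with a WWD read, and these were 21.8% of the WWD regions. WT and R shared 573 regions, which was 21.8% of the WT regions and 23.7% of the R regions, against 18.3% and 19.9% of all isolated regions. WWD and R shared 861, or 20.2% and 35.5%. A read in 1 construct thus said little about a read in another. At 5 or more reads WT and R shared 117 regions, 11.3% of those of WT and 10.2% of those of R, against 8.65% and 7.82% of all isolated regions.

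Neighbouring isolated regions held reads together at about the rate of all isolated regions. Of the 13231 regions, 12388 had no other isolated region within 500 bp, and the others formed 400 pairs, 13 triplets and 1 group of 4. In WT both regions of a pair held a read in 16 pairs, 1 of them did in 123 and neither did in 261. Where 1 region of a pair had a WT read its partner had one in 20.6% of cases, and where it had none, in 19.1%. The same values were 28.7% and 31.3% in WWD and 15.1% and 18.96% in R. A read in 1 region of a pair thus said little about its partner. The WWD to WT ratio was 1.64 for regions with a neighbour within 500 bp (1.30 to 2.08) and 1.64 for those without (1.55 to 1.74). The group of 4, at chr4:148981681-148983346 (mm9), held 0 reads in WT and WWD, and 9 reads in R at 1 of its 4 windows. Among the triplets, chr3:108226475-108227602 had 17 reads in R, 1 in WT and 0 in WWD, while chr3:123209394-123210441 had 8 WT, 5 WWD and 0 R reads.

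Along the genome the WWD excess was present on every chromosome tested. WWD over WT was above 1 on 20 of 20 chromosomes, from 1.24 on chromosome 3 to 2.03 on chromosome 7, and the interval excluded 1 on 17 of them. WWD over R was also above 1 on 20 of 20. R over WT was above 1 on 12 chromosomes and lay on both sides of 1. It was lowest on chromosome 19, at 0.650 (0.448 to 0.944), and highest on chromosome 4, at 1.36 (1.07 to 1.72), and these were the only chromosomes whose interval excluded 1, with no allowance made for looking at 20. By share of regions with a read, R was above WT on 6 of 20 chromosomes and WWD on 20 of 20. The isolated regions of chromosome 19 held a read in 24.4% of cases in WT, the highest WT share of any chromosome, and 15.4% in R.

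Isolated regions on chromosome X were poor in reads of each construct. The 280 regions had a level of 0.129 in WT, 0.172 in WWD and 0.167 in R, which was 0.338, 0.286 and 0.426 times that of the median autosome. Chromosome 8 stood at the other end, with 1.13 times the median autosome in WT, 1.17 times in WWD and 1.33 times in R, and had the highest level of any autosome in WWD and R. Whether chromosome copy number contributed was not tested. Isolated regions made up 38.4% of the H3K4me2 rows of chromosome X and between 42.1% (chromosome 9) and 49.5% (chromosome 10) of those of the autosomes.

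**Figure D5:**
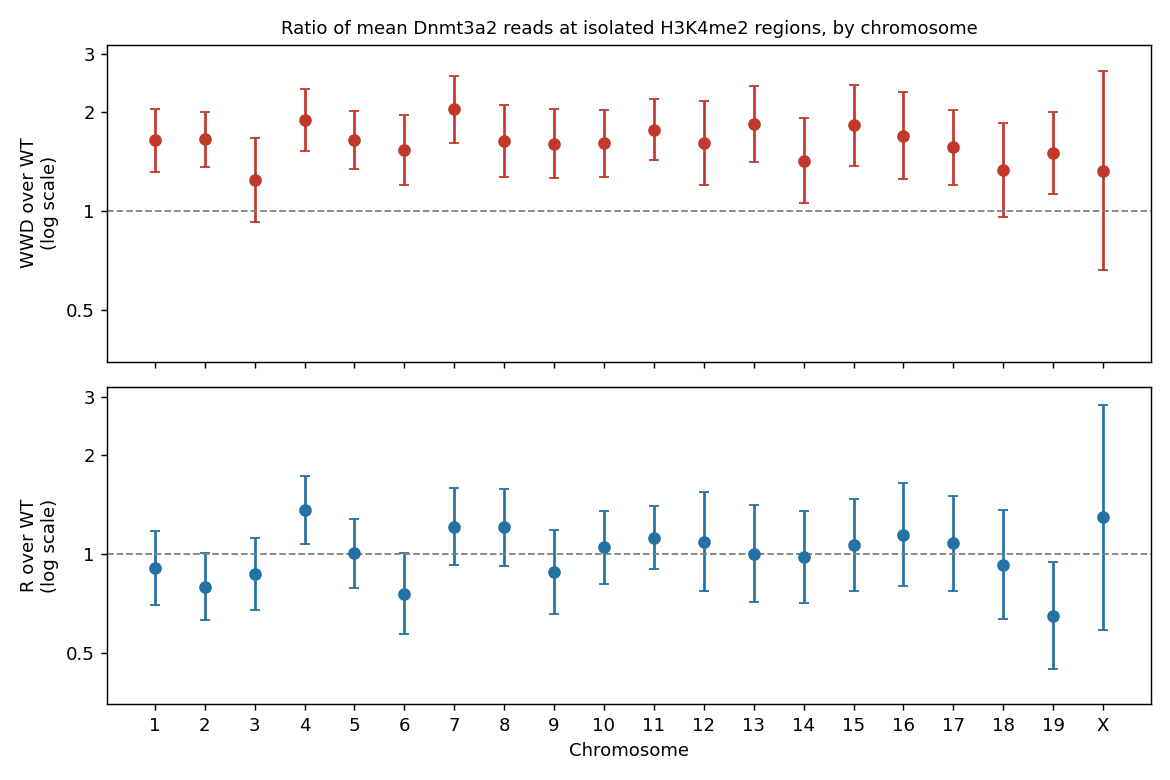
Ratio of mean Dnmt3a2 reads at isolated H3K4me2 regions (y axes, log scale) for WWD over WT (top) and R over WT (bottom) on each chromosome (x axis), with 95% intervals over regions. All 20 WWD points lie above 1, whereas R points lie on both sides of 1.

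Region by region, a difference was called where the levels plus 1 read per 10000000 differed by over 2-fold. WWD was called above WT at 2441 isolated regions (18.4%), beside 17% of all H3K4me2 rows, and below WT at 1212 (9.16%), beside 7.54% of all rows. R was called above WT at 1330 (10.1%), beside 8.77% of all rows, and below WT at 1389 (10.5%), beside 8.66%. WWD was called above R at 2476 (18.7%), beside 17.2%, and below R at 1192 (9.01%), beside 7.81%. Each share was near that of all rows, of which isolated regions made up 45.7%, and slightly above it in both directions. The shares beside H3K4me3 rows, from 5.59% to 15.2%, were lower. A call needs reads, and more isolated regions than all rows held any. The shares with a read were 32.2% against 28.8% in WWD, 19.9% against 16.1% in WT and 18.3% against 15.6% in R. The median log2 difference was 0 in each comparison, both at isolated regions and over all rows, because most regions held 0 reads in both columns. Against an empty region 2 reads were enough for a call in WWD and 3 were needed in WT and R, so calls in the WWD direction were easier to reach. The counts depend on the amount added, and with 3 reads per 10000000 in its place WWD was called above WT at 541 isolated regions and below at 291. The shares of all rows with that amount are not given here, so these 2 counts show only the dependence.

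The regions named here were ranked by size of difference, so their counting intervals make no allowance for that choice, and each rests on 1 window of 100 bp. The largest excess of WWD over WT was at chr8:106586617-106586716, where WWD had 18 reads while both other constructs had 0. With 3 reads put in place of a count of 0, WWD was 8.35-fold higher than WT and 8.78-fold higher than R. The counting intervals of the ratios started lower, at 6.12 and 6.43, so folds given in this way are not lower bounds. It lay 79736 bp from the nearest H3K4me3 row and 149208 bp from the nearest H3K4me1 row, and was thus remote from both other marks. Next came chr7:20117891-20117990, with 17 reads in WWD and none elsewhere, and chr11:115692495-115692594, with 17 in WWD, 0 in WT and 1 in R. At chr4:137426243-137426342 WWD had 16 reads, and WT and R had 0. These 4 windows were almost private to WWD.

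In the other direction, chr8:87981406-87981505 had 32 WT reads, 5 R reads and 0 WWD reads. With 3 reads in place of 0 it was 7.67-fold lower in WWD than in WT (counting interval of the ratio up to 0.17). At chr9:70268473-70268572 WT had 22 reads, and WWD and R had 0. At chr5:30498635-30498734 WT had 33 reads, WWD 3 and R 0, at least 11.6-fold lower in R than in WT. These windows were led by WT. R led at chr13:44783336-44783435, with 25 reads against 4 in WWD and 0 in WT, and at chr17:45692280-45692379, with 25 against 3 and 0. With 3 reads in place of 0, both were 7.92-fold above WT (counting intervals from 5.98). At chr7:53070219-53070318 R had 22 reads, and WT and WWD had 0.

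A few isolated regions held many reads in more than 1 construct. The input was not analysed, so whether these windows also gather reads without Dnmt3a2 was not tested. The highest mean was at chr11:3077607-3077706, with 63 WT, 48 WWD and 47 R reads, which are levels of 26.2, 27.8 and 18.6. A second window on this chromosome, chr11:3045202-3045301, held 58, 19 and 34. The window chr3:8246360-8246459 held 47, 19 and 30 and lay 205219 bp from the nearest H3K4me3 row. At chr3:152364630-152364729 there were 64 reads in WT and 63 in R but 2 in WWD, a WWD to WT ratio of 0.0435 (counting interval 0.00516 to 0.164). This was the strongest isolated region of both WT and R and nearly empty in WWD. The fifth by mean level, chr16:13748097-13748196, held 26 WT, 16 WWD and 4 R reads. Of the 202 regions with reads of all constructs, 14 had 5 or more in each and 3 had 10 or more in each.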

How the data were processed

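The authors' deposited tables hold log2 values per 100 bp window. Column names state the library's total reads, a rounded scaling factor and an effective total, per the file headers. The submitters' processing notes name Bowtie and mm9. Version, read filters and region calling are not stated there. Judged from the values, they had the form log2 of (1 + factor × n), where n is whole reads plus a random amount below 1 read. Whole reads were recovered by inverting this form, and values that span the border of 0 and 1 read were taken as 0. Recovery was tested on data simulated with this same form, which cannot show that the deposited values have it. A further 2 columns of no listed sample were left out. With 1 Dnmt3a2 column per construct no model was fitted. Ratios have conditional binomial counting intervals and delta-method intervals over regions, and shares have exact Clopper-Pearson intervals, all at 95%. PCR reads are not independent molecules, so none of these intervals covers library preparation or culture. Distances are bases between intervals. No mm9 genome was used here, so sequences and genes at the regions were not analysed. Named regions were the 3 with the largest log2 ratio each way in each of 3 comparisons, the 5 highest by mean with reads in all constructs, the 3 with most reads per construct and the 3 largest groups, and examples are given. The region set, lists and alternatives were chosen with earlier results of these data known. Python 3.11.15, numpy 2.4.6, pandas 2.3.3, scipy 1.17.1 and matplotlib 3.10.9 were used.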

Additional observations from a re-analysis of the deposited data

How the results depend on the processing

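No paired analysis was possible because each table had 1 Dnmt3a2 column per construct, so no library could be left out either. For 19 results 72 alternatives were computed, of which 39 left the value inside its counting interval (counts: within 1.5 times), 33 moved it outside and 0 turned a ratio whose interval excluded 1. R over WT, whose interval included 1, lay on both sides of 1. A cap of 5 reads per region gave ratios of 1.90 for WWD over WT, 0.924 for R over WT and 2.06 for WWD over R. With this cap WWD over WT was 1.96, 1.92, 1.81 and 2.02 from the nearest to the farthest bin from H3K4me3 rows, 1.99 for regions with a neighbour and 1.90 for those without. Keeping regions with reads in at least 2 of 3 columns gave 1.20 for WWD over WT and 1.17 for WWD over R, since by construction it drops regions with reads in 1 column alone. Deposited values on a linear scale gave 1.55 and 1.57, as they include the random amount. Shares with a read, an alternative chosen after seeing the data, gave 0.920 for R over WT and 1.76 for WWD over R. At 2 or more reads the WT, WWD and R shares were 15.2%, 22.4% and 14.1%, and at 5 or more 7.82%, 7.44% and 8.65%. A pseudocount of 3 left 541 regions with WWD above WT and 291 below, 441 with R above WT and 357 below, and 542 with WWD above R and 367 below. With reads in at least 2 columns these were 600, 368, 537, 545, 635 and 399. Shares of all H3K4me2 rows at these settings are not given here. The counts therefore show only how calls depend on the setting, and nothing particular to isolated regions. Larger distances from other tables, chromosome 8 or X left out, a cap of 20 reads and the rounded factors of the headers kept the 3 ratios of means within their counting intervals. So did border values read as 1, also added after seeing the data. Most single windows held 0 to a few reads, so depth limits statements on any 1 of them. Matched levels, thinned shares, pairs of regions, the comparison with other sets and the division by H3K4me3 level were likewise chosen after the data were seen.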
